A study of Mus musculus with 6 samples.

Results

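The 76 genes described here encode mitochondrial ribosomal proteins, taken by name from mouse cerebellum RNA. They were chosen as the gene symbols in the authors' deposited comparison that consist of Mrpl or Mrps, a number and at most 1 further letter, and that had 10 or more reads in at least 3 of the 6 libraries. Of 46983 gene rows in each count table, 77 carried such a symbol and 76 met the read minimum. Mrpl53 did not, with 2, 14 and 1 reads in WT replicates 1 to 3 and 0, 8 and 7 in the replicates labelled Slc7a5-KO. All 76 also passed the filter on low counts of the test. Of them, 49 encode proteins of the large ribosomal subunit and 26 of the small subunit, and Mrps36 encodes a protein that is now assigned to the 2-oxoglutarate dehydrogenase complex.

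The libraries came from the cerebellum of 6 C57BL/6J mice at postnatal day 60, 1 animal per library: 3 under the label WT and 3 under the label Slc7a5-KO. All 6 animals carried Tie2-Cre. WT stands for Tie2-Cre; Slc7a5 fl/+, so these controls also had 1 floxed allele next to the Cre, and Slc7a5-KO stands for Tie2-Cre; Slc7a5 fl/fl. Tie2 drives Cre in endothelial cells and in blood lineages, whereas the RNA came from the whole tissue. The libraries therefore mix cells in which Cre was driven with others, such as neurons, in which it was not. Which cells lost Slc7a5 cannot be read from these libraries. Slc7a5 is a transporter of large neutral amino acids that is abundant at the blood-brain barrier, and the comparison asks what changes in the cerebellum when its uptake route in vessels is lost.

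The mitochondrial ribosome translates the few messenger RNAs of the mitochondrial genome, all of which encode core subunits of the oxidative phosphorylation complexes. Its RNAs are encoded in the mitochondrial genome, but all its proteins are encoded in the nucleus, made in the cytosol and imported. Part of them descend from bacterial ribosomal proteins and the others are specific to mitochondria, and neurons depend heavily on the respiratory chain that this ribosome supplies.

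The libraries held between 13.4 and 34.2 M reads on genes (M, mega), the fewest in Slc7a5-KO replicate 3. The mitochondrial ribosomal protein genes took 35239 to 91398 reads per library, 0.254% to 0.277% of all gene reads, with a median of 790 reads per gene and library. Levels are given in CPM, counts per M reads after TMM scaling. The targeted gene went against the labels: Slc7a5 stood at 71.9, 66.3 and 43.2 CPM under the WT label and at 164, 59.3 and 118 CPM under the Slc7a5-KO label, with a log2 fold change of 0.91 ± 0.42 (SE, n = 3 per group) and an adjusted p of 0.844 by edgeR. Every direction below is therefore one between labels. Granule neuron markers summed to 3450 to 5939 CPM and Purkinje cell markers to 4054 to 7038 CPM over the libraries, and all 8 and 10 of them were tested. Markers of the choroid plexus, a tissue next to the cerebellum, summed to 48.6 CPM in Slc7a5-KO replicate 2 and to 2413 to 5790 CPM in the other 5 libraries. Microglia markers summed to 212 to 261 CPM in WT and 292 to 310.5 CPM in the libraries labelled Slc7a5-KO, and those of endothelial cells (280 to 372 CPM), oligodendrocytes (4125 to 7334 CPM) and astrocytes (2020 to 2895 CPM) overlapped between labels. In whole tissue, fewer cells of a type and less RNA per cell cannot be told apart.

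The genes are spread over 17 chromosomes, with at most 10 on 1 chromosome. Their transcripts were short, with a median length of 1302 bases against 3071 bases for the 14549 protein-coding genes tested. In 18 of 76 (23.7%), another protein-coding gene started within 1000 bases on the opposite strand and ran the other way, against 1343 of 14549 (9.23%) over all protein-coding genes tested. These partners include Sars2, a mitochondrial seryl-tRNA synthetase, whose start lies 172 bases from that of Mrps12, and Fau, a fusion of a ubiquitin-like protein with a cytosolic ribosomal protein, 59 bases from Mrpl49. None of the 17 partners tested passed the edgeR test (smallest adjusted p = 0.759), and 7 of 17 had a fold change of the same sign as the mitochondrial ribosomal protein gene. The comparison of gene position was chosen after the data were seen.

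Promoter sequence, from RefSeq on GRCm38.p6 (250 bases before to 50 bases after the start), was matched for 67 of the 76 genes. Mrpl4, Mrpl13, Mrpl15, Mrpl19, Mrpl38, Mrpl54, Mrps28, Mrps34 and Mrps35 had no entry. Letters bound by 3 factors known to act on nuclear genes for mitochondrial proteins were searched on both strands. CCGGAAG, a core bound by ETS factors such as GABP, occurred in 24 of 67 (35.8%), against 9.93% of all genes in the promoter table and 17.5% of the genes tested here. AAGATGGC, bound by YY1, occurred in 12 (17.9%), against 3.19% and 4.65%. The NRF1 motif, 10 letters with any base at 1 position (in capitals in the Mrpl45 sequence), occurred in 13 (19.4%), against 5.19% and 10.2%. At least 1 of them was present in 41 (61.2%), against 16.4% and 28.5%, and no matches of different motifs overlapped. These 3 were kept out of 10 strings after the shares had been seen. Of the others, CCAAT occurred in 38.8% of the matched genes, against 41.1% of the table and 42.2% of the genes tested. TATAAA occurred in 7.46%, against 15.7% and 8.98%, and CACGTG in 7.46%, against 8.09% and 11.1%. TGACGTCA occurred in 2.99%, against 2.03% and 3.39%, and the letters of the ZNF143 motif in 0%, against 0.322% and 0.654%. The last pair of the 10 were forms of strings above, the NRF1 motif with T at the variable base (4.48%, against 1.07% and 2.08%) and ACTTCCGG (17.9%, against 4.31% and 7.95%). A match describes the letters and is not evidence of binding.

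The 4 windows of 130 bases before the start that held a match and no annotated exon are shown here, because they let the reader see how close to the start the letters lie. Capitals mark the matches, and each line reads 5′ to 3′ towards the start of the gene. Mrpl34 lies at chr8:71464796-71464925 (plus strand), with the ETS letters beginning 37 bases before the start. Mrpl52 lies at chr14:54426779-54426908 (plus strand), with the ETS letters on the opposite strand, beginning 47 bases before the start. Mrps22 lies at chr9:98601680-98601809 (minus strand), with the ETS letters 11 bases before the start. Mrpl45 lies at chr11:97315586-97315715 (plus strand), with NRF1 letters beginning 120 and 38 bases before the start.
Mrpl34: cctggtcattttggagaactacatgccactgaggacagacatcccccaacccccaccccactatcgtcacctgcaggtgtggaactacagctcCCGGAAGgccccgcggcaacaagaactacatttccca
Mrpl52: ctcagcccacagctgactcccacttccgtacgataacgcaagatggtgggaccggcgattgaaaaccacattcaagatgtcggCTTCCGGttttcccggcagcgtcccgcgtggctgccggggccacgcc
Mrps22: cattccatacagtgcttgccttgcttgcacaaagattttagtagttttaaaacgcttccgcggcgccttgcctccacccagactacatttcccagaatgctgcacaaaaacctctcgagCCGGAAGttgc
Mrpl45: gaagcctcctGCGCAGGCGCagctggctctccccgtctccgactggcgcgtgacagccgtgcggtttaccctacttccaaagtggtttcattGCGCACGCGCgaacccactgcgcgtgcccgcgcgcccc
As a description of their fold changes between labels, the median log2 fold change was -0.044 for the 24 with the ETS letters (10 above 0). It was -0.085 for the 12 with the YY1 letters (2 above 0) and -0.024 for the 13 with the NRF1 letters (6 above 0). For the 26 with none it was 0.047 (14 above 0). Some genes hold letters of more than 1 factor, so the groups with letters share genes. How far these medians rest on single libraries is not given.

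Between the labels, no mitochondrial ribosomal protein gene passed the test. The edgeR quasi-likelihood test called 0 of 76 at an adjusted p under 0.05, against 8 of 16851 genes tested (0.0475%), and the smallest adjusted p among the 76 was 0.672, for Mrps15. At an unadjusted p under 0.05 2 were higher and 4 lower under the Slc7a5-KO label, 7.89% of the 76, against 3.45% higher, 2.77% lower and 6.22% in either direction over all genes tested. In 5 genes all 3 libraries labelled Slc7a5-KO lay above all WT libraries, and in 7 all lay below, together 15.8%, against 5.92% above, 5.54% below and 11.5% in either direction over all genes tested. DESeq2 called 0 of the 76 (0.299% of its genes with an adjusted p) and limma-voom also 0 (0.0593%). With 1 library left out, the count of 6 at an unadjusted p moved in both directions. It was 8, 4 and 1 without WT replicates 1, 2 and 3, and 2, 9 and 3 without Slc7a5-KO replicates 1, 2 and 3. The share over all genes tested is not given for these settings, so the counts are no result about the 76 genes.

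The fold changes were centred close to 0. The median log2 fold change, Slc7a5-KO over WT, was -0.025 with quartiles of -0.20 and 0.12, 35 genes above 0 and 41 below, and the median over all genes tested was 0.0022. Its sign was not stable: the median was 0.059 with 43 genes above 0 without WT replicate 2, and 0.011 with 39 above 0 without Slc7a5-KO replicate 1. Scaling to plain library size moved all genes alike, the 76 to a median of 0.0094 and all genes tested to 0.031, so that the 76 lay at -0.027 relative to all genes with TMM and at -0.022 with plain library sizes. The precision bounds what could have been missed: the 95% interval lay within a 2-fold change in either direction for 71 of the 76 genes and within a 1.5-fold change for 38. The 5 with wider intervals were Mrps18b, Mrps33, Mrpl23, Mrpl27 and Mrps36, of which all but Mrps18b stood at or below 12.3 CPM in every library.

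**Figure D1:**
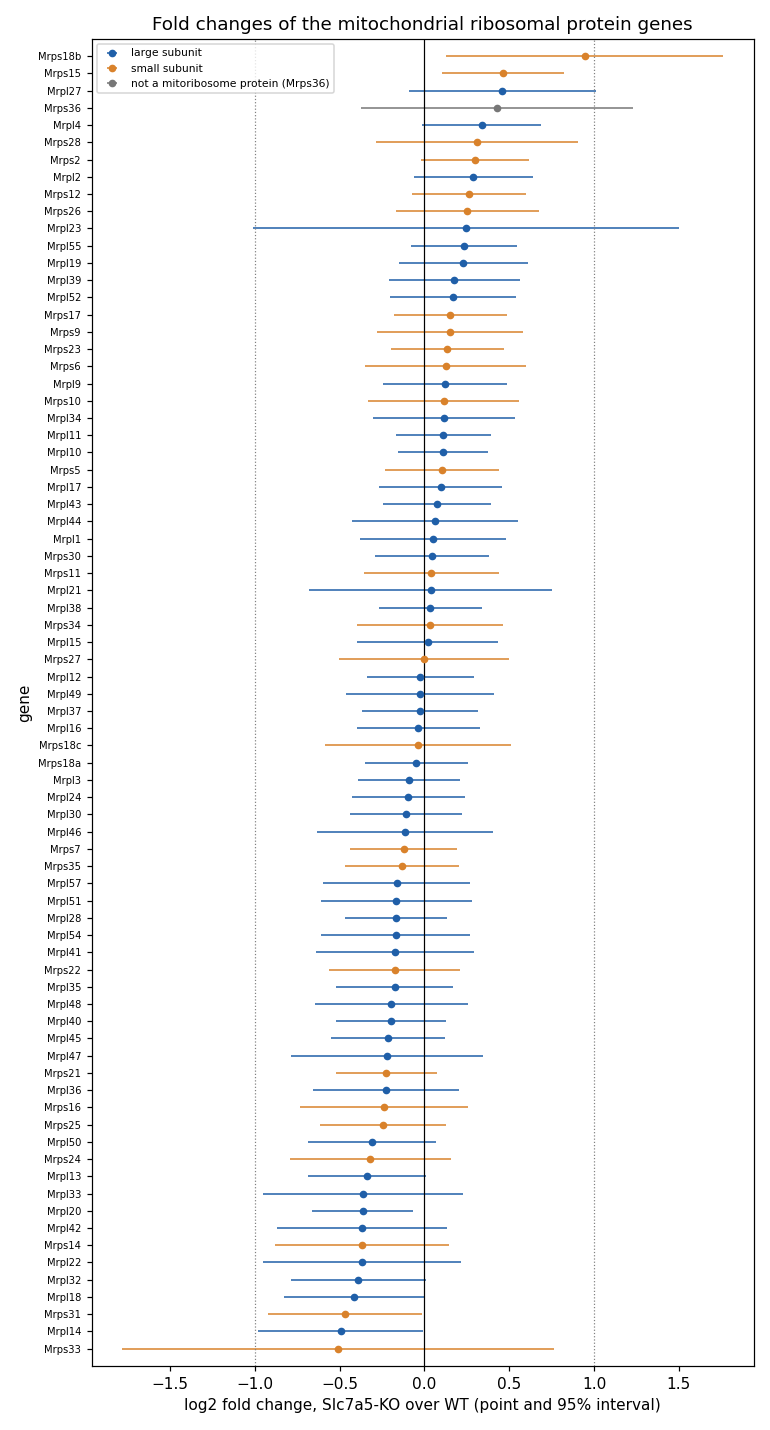
Log2 fold change, Slc7a5-KO over WT, of each of the 76 genes (points) with its 95% interval (bars), coloured by ribosomal subunit, with dotted lines at a 2-fold change. The points run from -0.51 to 0.94 around 0 and the widest bars belong to Mrps33 and Mrpl23.

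Among the 26 genes of the small subunit, which binds the messenger RNA and decodes it, edgeR called 0, and the median log2 fold change was 0.037 with 14 above 0. That sign turned without WT replicate 1 (-0.020), Slc7a5-KO replicate 2 (-0.0021) or Slc7a5-KO replicate 3 (-0.037). The 15 with bacterial counterparts had a median of 0.11 with 10 above 0, and the 9 specific to mitochondria had a median of -0.13 with 3 above 0. Mrps15, a homologue of a bacterial protein that binds the ribosomal RNA early in assembly, stood at 45.4, 32.4 and 34.6 CPM under the WT label and at 59.8, 45.6 and 49.7 CPM under the Slc7a5-KO label. Its groups did not overlap, although WT replicate 1 came close to the lowest of the others, and the log2 fold change was 0.46 ± 0.17 (adjusted p = 0.672 by edgeR). Mrps2 stood at 54.1, 49.0 and 44.1 CPM under the WT label and at 58.8, 53.5 and 68.9 CPM under the Slc7a5-KO label. The groups of Mrps2 overlapped, and its log2 fold change was 0.30 ± 0.15 (adjusted p = 0.823 by edgeR). Mrps12, a homologue of a protein of the decoding centre that sets its accuracy, stood at 56.9, 73.9 and 47.4 CPM under the WT label and at 70.8, 68.8 and 74.2 CPM under the Slc7a5-KO label. Here the WT libraries spanned the whole range but for 1 value, and the log2 fold change was 0.26 ± 0.16 (adjusted p = 0.863 by edgeR). It ran from 0.12 without WT replicate 3 to 0.45 without WT replicate 2.

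Of the 12 small-subunit genes below 0, Mrps31 and Mrps21 had the smallest p. Mrps31, specific to mitochondria, stood at 18.9, 27.2 and 20.9 CPM under the WT label and at 19.1, 14.8 and 14.3 CPM under the Slc7a5-KO label. The groups overlapped by 1 library, Slc7a5-KO replicate 1, and the log2 fold change was -0.47 ± 0.22 (adjusted p = 0.787 by edgeR). Mrps21, with a bacterial counterpart, stood at 56.7, 54.9 and 56.6 CPM under the WT label and at 48.4, 50.8 and 44.7 CPM under the Slc7a5-KO label. Its groups were tight and did not overlap, yet the change was small, with a log2 fold change of -0.22 ± 0.14 (adjusted p = 0.883 by edgeR). Mrps25 also had all libraries labelled Slc7a5-KO below WT, by a mean of 27.3 ± 2.24 against 32.3 ± 4.62 CPM (SD, n = 3).

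Among the 49 genes of the large subunit, which forms the peptide bond and holds the exit tunnel, edgeR called 0, and the median log2 fold change was -0.048 with 20 above 0. The 30 with bacterial counterparts had a median of -0.029 with 14 above 0, and the 18 specific to mitochondria a median of -0.14 with 6 above 0. Without WT replicate 2 these medians were 0.058, 0.066 and 0.028, so the signs for the large subunit rested on that library. The median of those with bacterial counterparts was also above 0 with plain library sizes (0.0035) and with both strands counted (0.0054). Mrpl4, whose bacterial homologue lines the exit tunnel, stood at 32.7, 34.9 and 28.4 CPM under the WT label and at 45.4, 39.9 and 36.0 CPM under the Slc7a5-KO label. The groups of Mrpl4 did not overlap, and its log2 fold change was 0.34 ± 0.17 (adjusted p = 0.819 by edgeR). Mrpl27, whose bacterial homologue reaches towards the peptidyl transferase centre, stood at 6.58, 8.62 and 10.1 CPM under the WT label and at 11.2, 12.3 and 11.3 CPM under the Slc7a5-KO label. No library of Mrpl27 overlapped between labels, but its level was low and its log2 fold change of 0.46 ± 0.26 imprecise (adjusted p = 0.855 by edgeR).

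Mrpl2, a homologue of a protein next to the peptidyl transferase centre, stood at 30.7, 27.3 and 25.7 CPM under the WT label and at 34.0, 34.7 and 33.4 CPM under the Slc7a5-KO label. The latter were nearly equal and all above WT, with a log2 fold change of 0.29 ± 0.17 (adjusted p = 0.856 by edgeR). Mrpl55 was likewise above WT in each, at 45.1, 50.2 and 50.1 CPM against 38.8, 41.6 and 43.3 CPM, with a log2 fold change of 0.23 ± 0.15 (adjusted p = 0.885 by edgeR).

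In the lower direction, the smallest p among large-subunit genes belonged to Mrpl20, Mrpl14, Mrpl18, Mrpl32, Mrpl13 and Mrpl50. Mrpl20, a homologue of a bacterial protein needed for early assembly of the large subunit, stood at 76.9, 94.9 and 74.9 CPM under the WT label and at 61.9, 67.5 and 62.2 CPM under the Slc7a5-KO label. Its groups did not overlap, WT replicate 2 was the highest, and the log2 fold change was -0.36 ± 0.14 (adjusted p = 0.708 by edgeR). Mrpl14 stood at 24.2, 35.2 and 28.4 CPM under the WT label and at 15.2, 29.0 and 18.1 CPM under the Slc7a5-KO label. In Mrpl14 the replicates numbered 2 were the highest under both labels, so the groups overlapped, and the log2 fold change was -0.49 ± 0.23 (adjusted p = 0.797 by edgeR). Mrpl18 stood at 26.7, 23.7 and 25.6 CPM under the WT label and at 19.3, 22.1 and 15.6 CPM under the Slc7a5-KO label. The groups of Mrpl18 did not overlap, and its log2 fold change was -0.41 ± 0.20 (adjusted p = 0.802 by edgeR).

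Mrpl32, whose protein is cut to its mature form by the m-AAA protease before it joins the ribosome, stood at 26.3, 38.6 and 33.5 CPM under the WT label and at 25.8, 27.6 and 21.7 CPM under the Slc7a5-KO label. WT replicate 1 lay within the range of the other label, and the log2 fold change was -0.39 ± 0.19 (adjusted p = 0.813 by edgeR). Mrpl13 stood at 35.7, 42.0 and 35.1 CPM under the WT label and at 31.8, 29.2 and 28.0 CPM under the Slc7a5-KO label, without overlap and with a log2 fold change of -0.34 ± 0.17 (adjusted p = 0.813 by edgeR). Mrpl50, specific to mitochondria, stood at 36.3, 33.5 and 34.6 CPM under the WT label and at 32.0, 22 and 30.3 CPM under the Slc7a5-KO label. Slc7a5-KO replicate 2 was the farthest below WT, the groups did not overlap, and the log2 fold change was -0.31 ± 0.18 (adjusted p = 0.858 by edgeR). Mrpl35 was the last of the 7 genes with every library labelled Slc7a5-KO below WT, at 29.4 ± 0.874 against 33.2 ± 1.07 CPM (SD, n = 3).

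**Figure D2:**
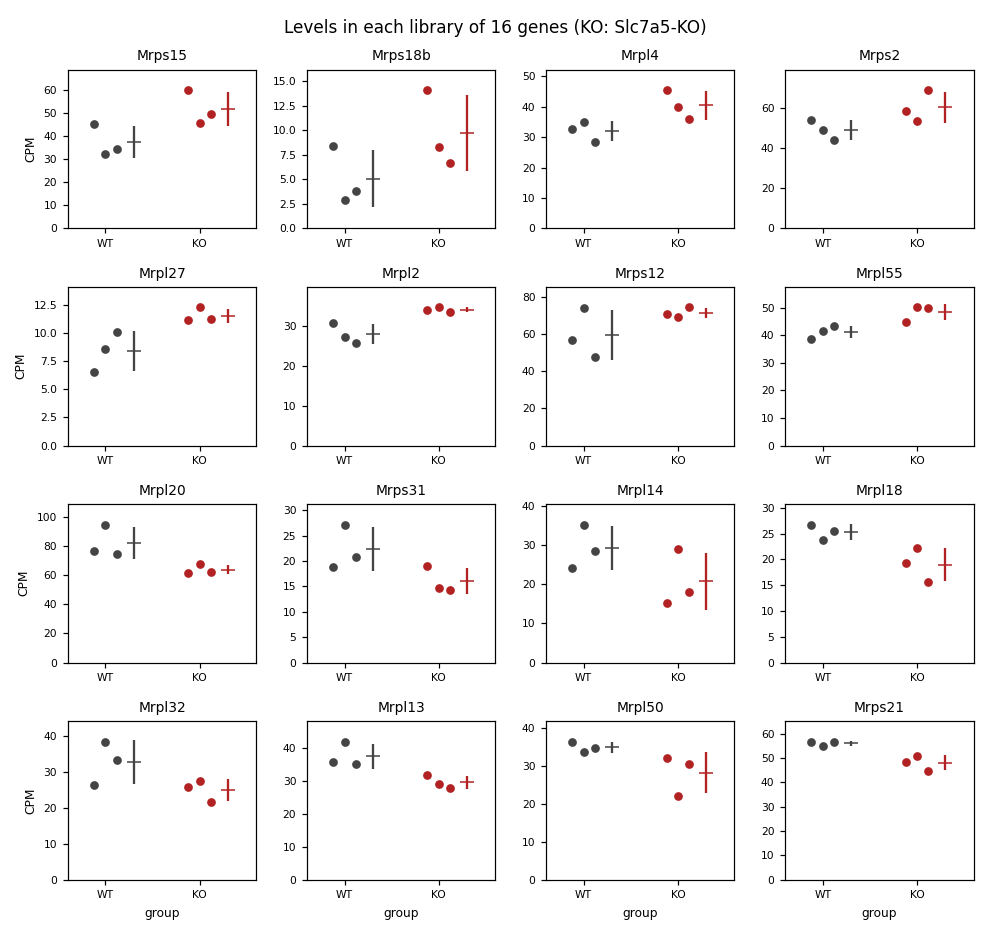
Level in CPM of the 8 genes with the smallest p in each direction, 1 point per library, with the mean and SD of each group beside its points. Mrps21 shows the tightest WT group (54.9 to 56.7 CPM) and Mrps18b the widest spread relative to its level (2.92 to 14.04 CPM).

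The Mrps18 name covers 3 paralogues whose proteins sit at different places: those of Mrps18b and Mrps18c in the small subunit, and that of Mrps18a in the large subunit. Their levels differed. Mrps18a stood at 85.0 CPM per kilobase of transcript, Mrps18c at 21.1 and Mrps18b at 6.82, as means over the 6 libraries. Mrps18b had the highest fold change of the 76 genes, at 8.36, 2.92 and 3.84 CPM under the WT label and 14.04, 8.33 and 6.69 CPM under the Slc7a5-KO label. WT replicate 1 lay above 2 of the 3 others, and the log2 fold change of 0.94 ± 0.39 did not pass (adjusted p = 0.752 by edgeR). Leaving out WT replicate 1 gave 1.53, and leaving out Slc7a5-KO replicate 1 gave 0.57. Mrps18a stood at 79.2, 71.6 and 78.4 CPM under the WT label and at 63.0, 86.6 and 72.2 CPM under the Slc7a5-KO label, with a log2 fold change of -0.048 ± 0.15 and a 95% interval of -0.35 to 0.26. Mrps18c stood at 11.3, 14.2 and 15.3 CPM under the WT label and at 10.7, 10.7 and 18.6 CPM under the Slc7a5-KO label, with a log2 fold change of -0.039 ± 0.26 and an interval of -0.59 to 0.51. Neither of the last pair had a stable sign, and whether the fold changes of the paralogues differ was not tested. Mrps36 stood at 4.38, 3.21 and 3.62 CPM under the WT label and at 6.43, 3.51 and 5.14 CPM under the Slc7a5-KO label, with overlapping groups and a log2 fold change of 0.43 ± 0.38 (adjusted p = 0.942 by edgeR).

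Most of these proteins occur once per ribosome, but their messages did not stand at equal levels. Per kilobase of the longest principal transcript, the mean level ran from 2.49 to 123 CPM, a 49.3-fold span, with a median of 19.5 and quartiles of 8.56 and 36.3. The median was 19.9 CPM per kilobase in the large and 18.4 in the small subunit. Mrpl52 was highest, at 102, 139 and 105 CPM per kilobase under the WT label and 100, 155 and 134 under the Slc7a5-KO label. Mrpl54 followed at 115, Mrps21 at 107, Mrpl20 at 95.6 and Mrps18a at 85.0 CPM per kilobase, and the ranges over libraries of these neighbours overlapped, so their order is not resolved. The lowest means were those of Mrps33 (2.49), Mrpl47 (2.81), Mrpl23 (3.01), Mrpl15 (4.78) and Mrpl51 (4.90 CPM per kilobase). Mrpl47, Mrpl15 and Mrpl51 are among the genes with long principal transcripts of 3364, 4203 and 3427 bases in the annotation. With the length of all exons in place of the principal transcript, 2 of the 5 highest and 4 of the 5 lowest stayed the same genes.

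**Figure D3:**
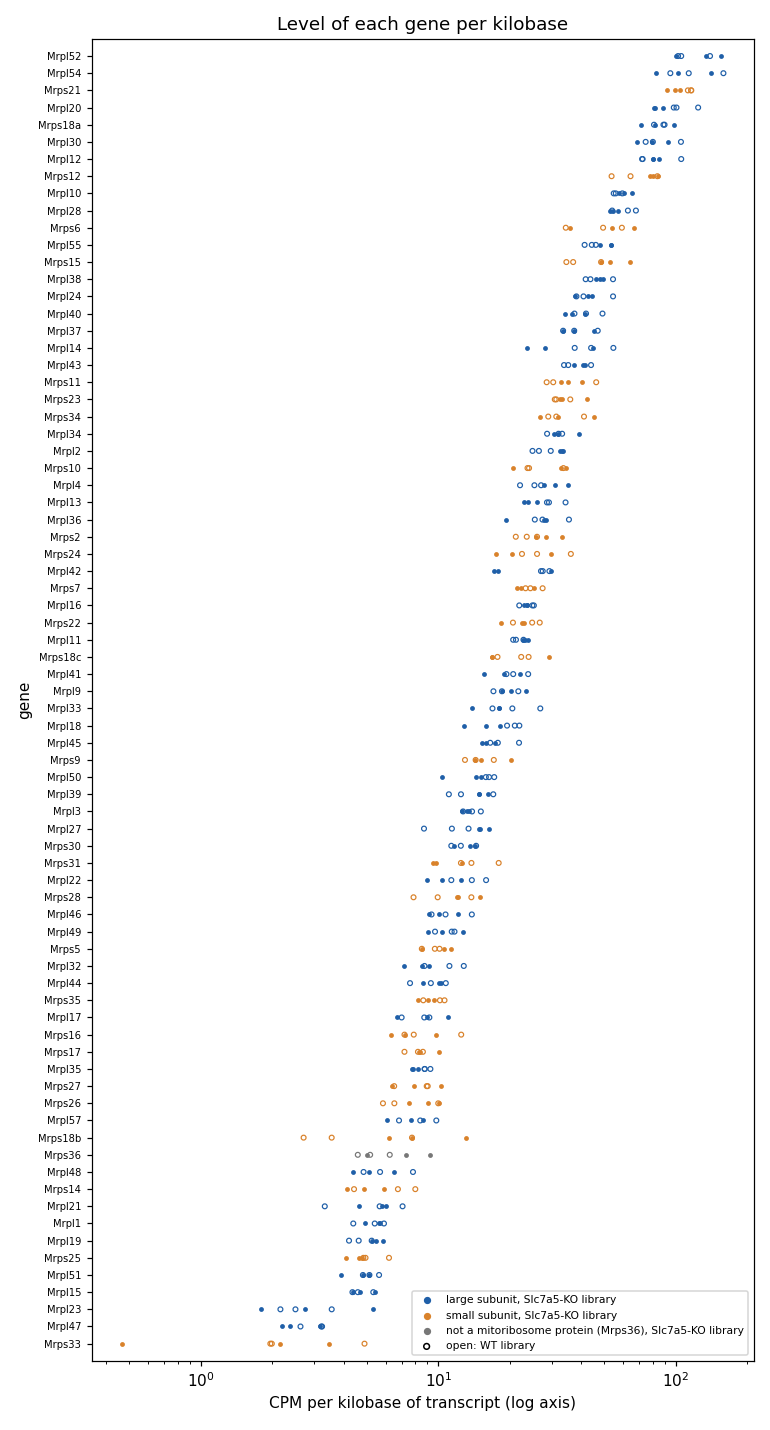
CPM per kilobase of transcript of each gene on a log axis, 1 point per library, with open points for WT and filled points for Slc7a5-KO, coloured by subunit and sorted by mean. The spread between genes, from 2.49 to 123, exceeds the spread between libraries for nearly every gene, and open and filled points intermingle.

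Between libraries, the median SD of log2 CPM of the 76 genes was 0.23, against 0.30 over all genes tested, without matching for level. It was largest for Mrps33 (1.1), Mrps18b (0.82), Mrpl23 (0.54), Mrpl14 (0.46) and Mrps6 (0.39). Mrps33 stood at 2.20, 5.41 and 2.17 CPM under the WT label and at 2.38, 3.85 and 0.514 CPM under the Slc7a5-KO label, where the last value rested on 7 reads. Mrpl23 stood at 1.50, 1.73 and 2.46 CPM under the WT label and at 1.24, 1.90 and 3.67 CPM under the Slc7a5-KO label, so counting error enters both. Mrps6 was well covered, at 50.1, 29.1 and 41.8 CPM under the WT label and 45.7, 30.4 and 56.5 CPM under the Slc7a5-KO label. It shares exon sequence on the same strand with Slc5a3, an inositol transporter gene, so reads of the pair cannot be fully told apart.

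After TMM scaling, WT replicate 2 stood above the other libraries for these genes. The mean over genes of log2 CPM, each gene centred on its own mean, was -0.054, 0.125 and -0.026 in WT and -0.023, 0.054 and -0.077 in the libraries labelled Slc7a5-KO. WT replicate 2 was the highest library for 30 of the 76 genes (39.5%, against 21.4% of all genes tested) and above the gene's mean in 55. The summed level was 2959 CPM there and 2547 to 2780 CPM in the other 5 libraries. Scaling moved the absolute value: the TMM factor of WT replicate 2 was 0.935 against 0.980 to 1.04 elsewhere, and with plain library sizes its mean was 0.029 and it was highest for 22 genes (28.9%, against 13.9% of all genes tested), while Slc7a5-KO replicate 1 had a mean of 0.034. Relative to the mean over all genes tested in the same library, WT replicate 2 stood at 0.159 with TMM and 0.153 with plain library sizes, and Slc7a5-KO replicate 1 at -0.051 and -0.049. The mean in WT replicate 2 was 0.137 over the large subunit and 0.123 over the small subunit. Purkinje cell markers moved with it, highest in WT replicate 2 for 8 of 10, and summed to 5781 to 7038 CPM in WT and 4054 to 5875 CPM in the libraries labelled Slc7a5-KO, with 0 of 10 above 0 in log2 fold change and none at 0 reads. Granule neuron markers were highest there for 5 of 8 and summed to 3991 to 5939 CPM in WT and 3450 to 5598 CPM in the others. In Slc7a5-KO replicate 2, the next highest library for the 76 genes with TMM, both lists were at their lowest, with mean deviations of -0.423 for Purkinje cell and -0.366 for granule neuron markers. The part of cell composition in the level of WT replicate 2 was not tested.

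**Figure D4:**
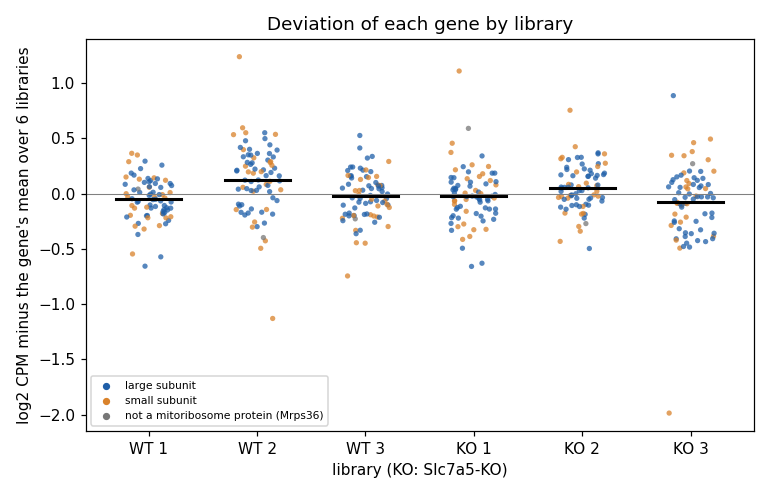
Log2 CPM of each gene minus its mean over the 6 libraries, 1 point per gene, coloured by subunit, with the mean over genes as a black line for each library. The line of WT replicate 2 is highest at 0.125 and that of Slc7a5-KO replicate 3 lowest at -0.077, and the lowest single points belong to Mrps33 and Mrps18b.

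Reads on the ribosomal RNAs that these proteins bind varied more between libraries than those on the proteins' messages. The median SD of log2 CPM was 0.76 against 0.23. The sequencing kit is one for messenger RNA, so these reads need not measure how much ribosomal RNA the tissue held. The RNA of the small subunit, mt-Rnr1, stood at 13202, 38386 and 20353 CPM under the WT label and at 11734, 23844 and 17264 CPM under the Slc7a5-KO label. The RNA of the large subunit, mt-Rnr2, stood at 11879, 57815 and 24065 CPM under the WT label and at 11096, 31623 and 17647 CPM under the Slc7a5-KO label. Both were highest in WT replicate 2 and next in Slc7a5-KO replicate 2, the same pair of libraries as the summed level of the 76 protein genes. The order of the other libraries differed. WT replicate 3 came next for both RNAs but had the lowest summed level (2547 CPM). Slc7a5-KO replicate 1 was lowest for both RNAs but not in summed level (2607 CPM). For both RNAs the groups overlapped. The log2 fold changes were -0.45 ± 0.49 and -0.64 ± 0.77, with edgeR adjusted p of 0.964 and 0.968. Without WT replicate 2 both were above 0, with a median of 0.12 over the pair against -0.54 with all libraries, so the sign rested on that library. Together the pair took 2.38% to 8.997% of gene reads.

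**Figure D5:**
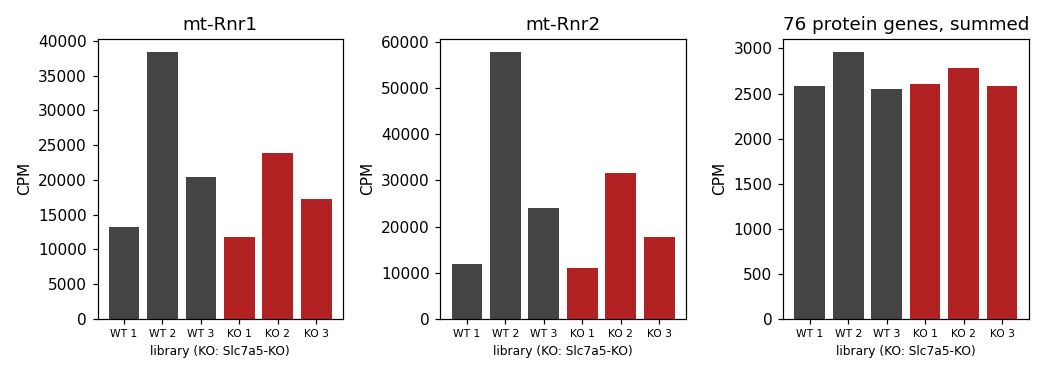
Reads in CPM on the mitochondrial ribosomal RNAs mt-Rnr1 and mt-Rnr2 and the summed level of the 76 protein genes, 1 bar per library, grey for WT and red for Slc7a5-KO. WT replicate 2 has the tallest bar in each panel, at 38386, 57815 and 2959 CPM.

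The messages that this ribosome translates did not pass the test either. Of the 13 mitochondrially encoded messages 11 were tested and edgeR called 0, with 0 at an unadjusted p under 0.05 and a median log2 fold change of 0.027, which fell below 0 on leaving out WT replicate 1 (-0.062) or WT replicate 3 (-0.029) and with a sex term (-0.011). The smallest p was that of mt-Nd3, at 3.39, 1.80 and 4.09 CPM under the WT label and 5.72, 4.67 and 6.17 CPM under the Slc7a5-KO label (log2 fold change 0.83 ± 0.40, edgeR adjusted p = 0.809). The low level of mt-Nd3 is shared by mt-Co2, mt-Co3 and mt-Atp6, all under 10 CPM in tables that list 0 multimapping reads, so their counts are uncertain. The well covered mt-Cytb followed, at 13021, 15044 and 13332 CPM under the WT label and 14292, 15822 and 16401 CPM under the Slc7a5-KO label (log2 fold change 0.17 ± 0.14, edgeR adjusted p = 0.938).

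The wider pathway gave no calls: edgeR, DESeq2 and limma-voom each called 0 genes in the lists of other mitochondrial ribosomal proteins, assembly factors, translation factors, tRNA synthetases, transcription and RNA processing genes and regulators. Of 6 mitochondrial ribosomal proteins that carry other names, 1 was above 0 and 5 below, with a median log2 fold change of -0.12. Only 1 was lower at an unadjusted p under 0.05 (16.7%, against 2.77% lower over all genes tested). Chchd1, a small-subunit protein, had the smallest p among them, at 45.8, 80.1 and 50.9 CPM under the WT label and 34.4, 51.1 and 29.2 CPM under the Slc7a5-KO label (log2 fold change -0.62 ± 0.23, edgeR adjusted p = 0.697). Its highest library was WT replicate 2, and the groups overlapped. Mrpl58, a large-subunit protein that also releases stalled peptides and whose older symbol is Ict1, had a log2 fold change of -0.21 ± 0.15 (adjusted p = 0.905 by edgeR).

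Of 25 factors that assemble the ribosome, 15 were above 0, with a median log2 fold change of 0.10. Of these 25, 1 was higher and 0 lower at an unadjusted p under 0.05 (4%, against 6.22% in either direction over all genes tested). Noa1, a GTPase of small-subunit assembly, stood at 17.955, 15.4 and 18.9 CPM under the WT label and 26.0, 21.4 and 24.7 CPM under the Slc7a5-KO label (log2 fold change 0.46 ± 0.20, edgeR adjusted p = 0.754). Tfb1m, which methylates the small-subunit RNA, stood at 6.83, 4.87 and 7.67 CPM under the WT label and 9.03, 7.99 and 10.7 CPM under the Slc7a5-KO label (log2 fold change 0.51 ± 0.30, edgeR adjusted p = 0.855). Neither gene overlapped between labels.

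Of 18 translation factors and their helpers 17 were tested, and 6 were above 0, with a median of -0.034. Of the 17, 2 were higher at an unadjusted p under 0.05 (11.8%, against 3.45% higher over all genes tested). Without WT replicate 2 the median was 0.042 with 9 above 0. Gatc, a subunit of the amidotransferase that makes mitochondrial glutaminyl-tRNA, stood at 36.9, 42.2 and 38.4 CPM under the WT label and 52.5, 53.5 and 62.4 CPM under the Slc7a5-KO label (log2 fold change 0.52 ± 0.15, edgeR adjusted p = 0.471). Oxa1l, the insertase that receives new peptides from the ribosome at the inner membrane, stood at 104, 127 and 96.0 CPM under the WT label and 144, 141 and 135 CPM under the Slc7a5-KO label (log2 fold change 0.36 ± 0.13, edgeR adjusted p = 0.672). Both had every library labelled Slc7a5-KO above every WT library.

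Of 17 mitochondrial tRNA synthetases 9 were above 0, with a median of 0.13. Only 1 was higher at an unadjusted p under 0.05 (5.88%, against 3.45% higher over all genes tested). Cars2, for cysteine, stood at 11.3, 9.67 and 11.2 CPM under the WT label and 11.8, 18.4 and 22.2 CPM under the Slc7a5-KO label (log2 fold change 0.69 ± 0.25, edgeR adjusted p = 0.669). Sars2, which shares its start region with Mrps12, had a log2 fold change of 0.37 ± 0.22 (adjusted p = 0.863 by edgeR). Groups did not overlap in 5 of the 17, all of them higher (29.4%, against 5.92% higher over all genes tested).

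Of 19 genes for mitochondrial transcription and RNA processing 11 were above 0, with a median of 0.014. Of these 19, 1 was higher and 1 lower at an unadjusted p under 0.05 (10.5%, against 6.22% in either direction over all genes tested). Leaving out Slc7a5-KO replicate 1 gave a median of -0.10, and leaving out WT replicate 3 gave -0.071. Fastkd3, of a family of mitochondrial RNA-binding proteins, stood at 19.0, 12.7 and 17.7 CPM under the WT label and 10.2, 8.70 and 10.8 CPM under the Slc7a5-KO label (log2 fold change -0.74 ± 0.24, edgeR adjusted p = 0.588). Tfb2m, a factor that opens mitochondrial promoters, was low, at 1.41, 0.433 and 1.09 CPM under the WT label and 3.25, 1.42 and 3.82 CPM under the Slc7a5-KO label (log2 fold change 1.52 ± 0.67, edgeR adjusted p = 0.759).

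Of 11 nuclear regulators of mitochondrial genes 3 were above 0, with a median of -0.011, or 0.021 with plain library sizes. Of the 11, 2 were lower at an unadjusted p under 0.05 (18.2%, against 2.77% lower over all genes tested). The pair with the smallest p, Gabpa and Yy1, are factors whose letters were searched in the promoters above. Nrf1, whose letters were searched too, was not among the 2 under 0.05, and its groups overlapped. Gabpa, the DNA-binding subunit of GABP, stood at 27.8, 36.3 and 37.1 CPM under the WT label and 26.3, 21.7 and 18.8 CPM under the Slc7a5-KO label (log2 fold change -0.59 ± 0.19, edgeR adjusted p = 0.588). Yy1 stood at 29.2, 30.2 and 24.4 CPM under the WT label and 22.1, 19.2 and 16.5 CPM under the Slc7a5-KO label (log2 fold change -0.53 ± 0.19, edgeR adjusted p = 0.669). Neither Gabpa nor Yy1 overlapped between labels (2 of 11, 18.2%, against 5.54% lower over all genes tested), and neither passed the test. Slc7a5-KO replicate 3 was the lowest library for both, and for 6 of the 11 regulators in all. A link between these levels and the promoter letters was not tested.

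The authors' deposited table gave the same count. Of the 76 genes it held an adjusted p for 76, of which 0 were under 0.05, against 0.9% of the 14561 genes with an adjusted p in it. Its smallest adjusted p among them was 0.179, for Mrpl20, and 11 were under 0.05 unadjusted, of 76, against 11.2% of the 14561. All 76 fold changes in the authors' deposited table had the sign found here with edgeR. Counting leaves some levels uncertain: 7 genes share exon sequence with another gene on the same strand, among them Mrps34 with Nme3 and Mrps24 with Urgcp. The share of reads on the opposite strand was over 10% in 3 genes, Mrpl47 (64%), Mrps25 (59%) and Mrpl48 (27.9%), and these were not counted.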

How the data were processed

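RNA of 6 cerebella was sequenced with the SENSE mRNA-Seq V2 kit, per the labels' protocols, and grouped by the labels into 3 WT and 3 Slc7a5-KO libraries of 1 animal each. The deposited count tables hold whole, unnormalised read counts per gene, for both strands and for each strand apart. STAR 2.5.4 and GRCm38 were named per the submitters' processing notes, while the sources used here name neither an annotation release nor a step for duplicates. The reverse-strand count was used, with 94.8% to 95.8% of the reads that either strand column counts. Reads assigned to no single gene were 19.5% to 22.2% and stayed out. The authors' deposited comparison, made with DESeq2 1.10.1 in R 3.2.4 per the submitters' processing notes, gives a mean normalised count (a signal over all libraries), log2 fold changes, a Wald score, and p-values with adjusted values, per the file headers. The 76 genes were found by their symbols in it and joined to the counts by Ensembl identifier, through a gene name table that matched 46488 of 46983 gene rows.

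The filter filterByExpr (at its minimum count of 10 and total of 15) left 16851 genes, which were scaled by TMM on the sum of all gene reads, and tested with edgeR 4.0.16 in R 4.3.3 (quasi-likelihood, robust, 2-sided, group as the only term), with Benjamini-Hochberg adjustment over all genes and a false discovery rate of 0.05. A prior count of 2 entered log2 CPM, and ± marks the SE of log2 fold changes and the SD of CPM. The biological coefficient of variation was 31.6%, and the procedure was tested on simulated data. Transcript lengths and gene positions come from GENCODE release M21 on GRCm38, and promoters from RefSeq. Alternatives were other scalings, no filter on low counts, both strands, a replicate block, a term for sex read from the data (1 of 3 WT and 2 of 3 Slc7a5-KO libraries female), leaving out each library, DESeq2 1.42.0 and limma-voom (limma 3.58.1).

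Described by name are the 8 genes with the smallest p in each direction, the 5 highest and 5 lowest per kilobase, the 5 with the largest SD, the Mrps18 paralogues, Mrps36, the mitochondrial ribosomal RNAs and the pair with the smallest p in each pathway list. The genes, lists and subgroups were chosen with earlier results of these data known. Mrps25 and Mrpl35, the promoters, the gene partners and the other gene families were added after their values were seen.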

Additional observations from a re-analysis of the deposited data

How the results depend on the processing

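Over 14 alternatives, no mitochondrial ribosomal protein gene and no gene of the pathway lists passed the test in any. Of 266 values for 19 genes followed singly, 260 kept their direction and side of the threshold, and the smallest adjusted p was 0.372. The 6 that reversed belong to Mrps18c (0.00015 with both strands, and 0.049, 0.097 and 0.091 without WT replicate 3, Slc7a5-KO replicate 1 or Slc7a5-KO replicate 2) and Mrps18a (0.026 with a sex term, 0.057 without Slc7a5-KO replicate 1); leaving out libraries gave -0.34 to 0.097 for the former and -0.18 to 0.057 for the latter. Leaving out 1 library moved 10 of the 19 by over 1.5 times. The mean deviation of WT replicate 2, 0.125, moved to 0.029 with plain library sizes, as all genes tested there moved from -0.034 to -0.124. Leaving out each library in turn gave medians of -0.077 to 0.059, above 0 without WT replicate 2 or Slc7a5-KO replicate 1, and 1 to 9 genes at an unadjusted p under 0.05. It gave 17 to 25 genes whose groups did not overlap against 12, and fewer libraries overlap less often. The share over all genes tested in those settings is not given, so these counts are no result about these genes. The replicate numbers gave no pairing, with correlations of -0.038, -0.059 and -0.027 between same-numbered libraries. With a replicate block 0 of the 76 genes and 6 of all genes were called, and the median was -0.028. With the block, 4 of the 76 were at an unadjusted p under 0.05. The share of all genes at that p is not given there, so this count is no result about the 76 either. Depth limits Mrps33 and Mrpl23 most, with as few as 7 reads in a library for Mrps33 and 40 for Mrpl23.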

Other observations

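A pair of other gene families, chosen after their values were seen, stood higher in WT replicate 2 as well. One family was the nuclear genes for subunits of complex I of the respiratory chain, a complex of which the mitochondrial ribosome makes part of the core subunits. These nuclear genes had a mean deviation of 0.295 there on the log2 CPM scale. That library was the highest for 26 of 37 (70.3%, against 21.4% of all genes tested). The cytosolic ribosomal protein genes had a mean deviation of 0.301, and the library was the highest for 34 of 76 (44.7%, against the same 21.4%). Between the labels, 5 of the 37 complex I genes were above 0 and 32 below, with a median log2 fold change of -0.21, and 0 passed the edgeR test, with 7 lower and 0 higher at an unadjusted p under 0.05 (18.9% lower, against 2.77% of all genes tested). DESeq2 called 1 of the 37 (against 0.299% of its genes). With plain library sizes the median was -0.18, and without WT replicate 2 it was -0.051 with 10 above 0, so most of its size came with that library. The cytosolic ribosomal protein genes had a median of -0.076, which was 0.048 without WT replicate 2, and their many near-identical copies leave their levels uncertain.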
